A study of Mus musculus with 24 samples.

Results

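Genes of DNA replication and mitosis were followed in mouse embryonic fibroblasts (MEFs) under stress of the endoplasmic reticulum. The set held 43 genes of the 20170 named on the array: 20 replication genes, 18 mitotic genes, the 3 G1 cyclins Ccnd1, Ccne1 and Ccne2, and the G1/S regulators E2f1 and Cdk2. Members were chosen by name, with earlier results of these data known. Each gene was read from its brightest probe by mean log2 signal over the 24 arrays. Of the 43, 42 passed the filter on dim probes, which kept the 14459 genes detected above background throughout 1 group or more. Ccne2, a cyclin of S-phase entry, did not pass: its probe was well above background on 5 of 24 arrays, and its log2 signal ranged from 1.13 to 4.57.

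Total RNA was hybridised to 24 one-colour Agilent arrays in 10 groups. Wild-type MEFs were untreated (n = 4) or given tunicamycin at 2 µg/mL for 12 h (n = 4; the treatment protocol names 12 or 24 h, and 1 untreated Perk-null file is named for 24 h), and the same treatment was given to MEFs labelled PERKKO (Perk-null), ATF4KO (Atf4-null) and eIF2a A/A, each with 2 untreated and 2 treated arrays. MEFs labelled Fv2E-PERK were untreated (n = 2) or treated with a drug labelled AP for 12 h (n = 2), at a dose not given in the sources used here. Tunicamycin blocks N-linked glycosylation and so causes unfolded proteins to build up. PERK is the kinase that then phosphorylates the initiation factor eIF2α, and the transcription factor ATF4 is translated more under that phosphorylation. The A/A allele replaces the phosphorylated serine of eIF2α with alanine, and Fv2E-PERK is an engineered PERK kinase that a dimerising drug switches on without stress. No label says whether the arrays of a group came from separate cultures, so that p-values measure the spread between these arrays. Whether each genotype is 1 clone or several was not stated.

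The arrays were scanned in 3 runs. Run 1 held wild-type replicates 1 and 2, named in the file names as wild type of the Atf4 line, with the Atf4-null arrays. Run 2 held wild-type replicates 3 and 4, named as wild type of the Perk line, with the Perk-null cells. The eIF2a A/A and Fv2E-PERK arrays made up run 3. In run 1 each slide and each scan within the run held 1 treatment, so slide, scan and tunicamycin cannot be told apart there. Levels are log2 of the processed signal over the array's 75th percentile, which ranged from 111.4 to 417.7 intensity units; 45.1% to 58.2% of probes were well above background. The Atf4 probe read 7.20 to 7.65 in untreated wild type, and -0.05 and 2.79 in untreated Atf4-null cells. The probe for Eif2ak3, the gene of PERK, read a mean of -0.24 ± 0.33 (SD, n = 2) in untreated Perk-null cells against 0.67 ± 0.49 (SD, n = 4) in wild type; which part of the gene it reads was not checked. Ddit3 (CHOP), a stress gene downstream of ATF4, went from a mean of 1.64 to 6.31 in wild type, 0.58 to 1.85 in Perk-null, 1.97 to 5.44 in Atf4-null, 0.30 to 1.43 in eIF2a A/A and -0.18 to 2.13 in AP-treated cells. Fibroblast markers were present, with 10 to 12 of 12 well above background on all arrays of each group. The Perk-null arrays also carried epithelial markers: 4 of 7 untreated and 5 of 7 treated were well above background on both arrays, and the linear levels of the 7 summed to 44.3 to 58.5, against 0.23 to 1.40 in the other genotypes. Krt18, a simple-epithelium keratin, accounted for most of that sum, at a log2 level of 5.57 untreated, and Cdh1 (E-cadherin) was well above background on the 4 Perk-null arrays and on none of the other 20 arrays. Their part in the Perk-null results was not tested.

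A dividing cell licenses its replication origins in G1, when ORC, Cdc6 and Cdt1 load the Mcm2-7 helicase onto DNA, copies its genome in S phase with polymerases fed by nucleotide-making enzymes, and then builds a spindle and separates chromosomes under Cdk1 and the Aurora and Polo kinases. Genes of G1/S are classically transcribed by E2F factors that the retinoblastoma family restrains. Genes of G2/M are classically switched by the MuvB complex, with B-Myb and FoxM1, through the cell cycle genes homology region (CHR), often next to CCAAT boxes bound by NF-Y. In fibroblasts under endoplasmic reticulum stress, PERK signalling is known to lower cyclin D1 protein and hold cells in G1.

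Promoters from RefSeq (GRCm38.p6, 250 bases before to 50 after the start) are shown because replication and mitotic members carried different words in them. E2F words were searched as TTTCCCGC, TTTCGCGC, TTTGGCGC and TTTGCCGC, CHR words as TTTGAA and TTCGAA, and the NF-Y box as CCAAT, each on both strands. Cdc6, which loads the helicase, and Orc1, a subunit of the origin recognition complex, were chosen because both rose with tunicamycin in wild type. Tk1 (thymidine kinase), Ccnb2 (cyclin B2), Plk1 (Polo-like kinase) and Kif11 (a spindle motor) were chosen because they fell. Capitals mark every match to a searched word.
Cdc6, chr11:98907901-98908200, plus strand: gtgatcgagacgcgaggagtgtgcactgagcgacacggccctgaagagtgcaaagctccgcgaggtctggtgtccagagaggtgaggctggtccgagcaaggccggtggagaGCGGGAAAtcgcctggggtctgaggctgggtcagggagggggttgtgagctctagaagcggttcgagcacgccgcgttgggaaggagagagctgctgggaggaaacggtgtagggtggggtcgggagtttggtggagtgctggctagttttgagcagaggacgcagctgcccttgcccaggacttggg
Orc1, chr4:108579204-108579503, plus strand: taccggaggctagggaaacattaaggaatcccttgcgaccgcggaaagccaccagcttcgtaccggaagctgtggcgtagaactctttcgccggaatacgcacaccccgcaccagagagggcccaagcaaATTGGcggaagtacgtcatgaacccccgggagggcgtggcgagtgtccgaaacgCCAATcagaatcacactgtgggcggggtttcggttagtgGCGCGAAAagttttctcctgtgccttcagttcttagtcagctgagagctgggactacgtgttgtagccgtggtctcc
Tk1, chr11:117825965-117826264, minus strand: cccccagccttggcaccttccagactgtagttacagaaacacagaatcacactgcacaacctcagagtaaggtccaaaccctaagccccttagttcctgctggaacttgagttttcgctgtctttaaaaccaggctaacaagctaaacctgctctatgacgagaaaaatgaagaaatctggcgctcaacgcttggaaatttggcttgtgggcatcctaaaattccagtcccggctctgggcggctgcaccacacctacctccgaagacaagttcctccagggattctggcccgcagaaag
Ccnb2, chr9:70421505-70421804, minus strand: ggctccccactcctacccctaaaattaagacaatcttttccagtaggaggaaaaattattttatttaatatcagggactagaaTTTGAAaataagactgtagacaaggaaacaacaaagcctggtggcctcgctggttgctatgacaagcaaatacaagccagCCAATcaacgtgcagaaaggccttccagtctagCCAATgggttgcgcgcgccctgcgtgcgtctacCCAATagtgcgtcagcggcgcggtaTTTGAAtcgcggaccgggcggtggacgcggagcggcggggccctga
Plk1, chr7:122159185-122159484, plus strand: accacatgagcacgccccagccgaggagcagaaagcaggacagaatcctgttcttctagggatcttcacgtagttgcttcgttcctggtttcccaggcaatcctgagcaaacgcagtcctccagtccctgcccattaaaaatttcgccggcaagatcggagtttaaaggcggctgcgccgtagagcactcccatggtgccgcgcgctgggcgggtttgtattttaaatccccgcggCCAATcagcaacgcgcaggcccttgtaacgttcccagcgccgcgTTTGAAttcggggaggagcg
Kif11, chr19:37376132-37376431, plus strand: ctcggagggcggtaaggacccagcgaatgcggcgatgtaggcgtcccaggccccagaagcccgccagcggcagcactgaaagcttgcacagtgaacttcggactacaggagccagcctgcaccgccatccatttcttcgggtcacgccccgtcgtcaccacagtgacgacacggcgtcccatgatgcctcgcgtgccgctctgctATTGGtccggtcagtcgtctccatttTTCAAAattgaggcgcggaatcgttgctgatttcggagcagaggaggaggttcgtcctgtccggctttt

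The Cdc6 window held 1 E2F word, read on the minus strand, whose first base lay 138 bases before the start. In Orc1 the E2F word began 27 bases before the start, with 2 CCAAT boxes at 120 and 66 bases before it. Ccnb2 held 3 CCAAT boxes, at 87, 54 and 21 bases before the start, and 2 CHR words, one of them 4 bases past it. Plk1 and Kif11 each held 1 CCAAT box and 1 CHR word, with 44 bases between the first bases of the box and of the CHR in Plk1 and 26 in Kif11. The Tk1 window held none of the searched words.

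Among the members, 16 of 20 replication genes had a promoter in the table, with 17 windows. E2F words were in 9 of these 17 (52.9%), against 2.3% of all 32851 promoter windows. They were in Mcm3, Mcm5, Mcm6, Mcm7, Cdc6, Cdt1, Orc1, Pola1 and Rfc3. CHR words were in 3 of 17 (17.6%), against 19.2% of all windows. Mitotic genes showed the other pattern: of 14 with a promoter, 11 (78.6%) held a CHR word and 1 (7.1%) an E2F word, in Cdk1. CCAAT was common to both, in 76.5% of replication and 85.7% of mitotic windows, against 37.4% of all windows. The longer lists of other cell cycle genes gave 20% with E2F and 18% with CHR words among 50 windows of other replication genes. Among 67 windows of other mitotic genes these shares were 9.0% and 70.1%. A match is a string of letters and no evidence of binding. The table gave no entry for Mcm4, Gins1, Gins2, Pole, Ccna2, Aurkb, Kif20a, Foxm1, Ccnd1 and Ccne2.

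**Figure D1:**
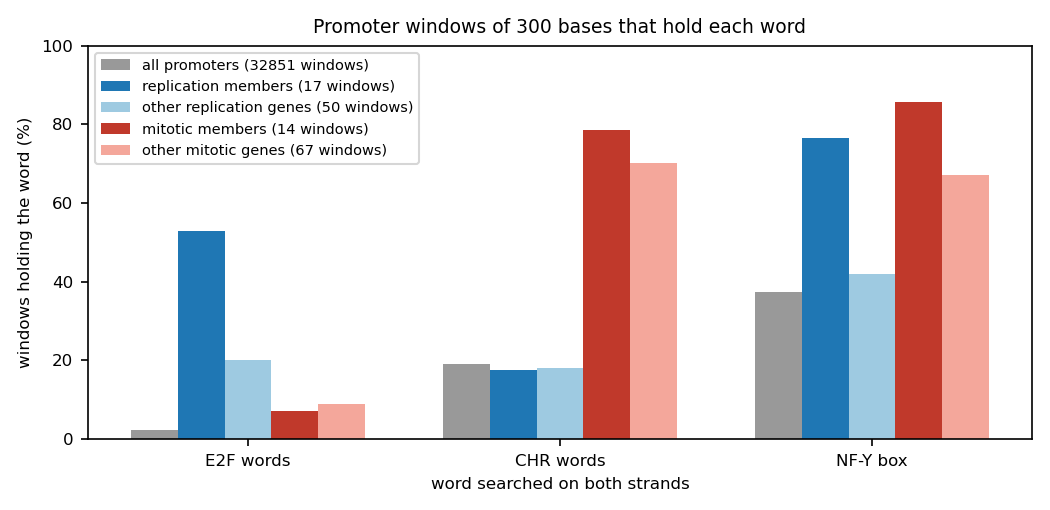
Share of promoter windows (percent, y axis) that hold each searched word, for replication members, mitotic members, the longer lists of other replication and other mitotic genes, and all windows. E2F words stood in 52.9% of replication and 7.1% of mitotic windows, and CHR words in 17.6% and 78.6%.

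In wild type of both runs together, tunicamycin lowered most of the mitotic genes, and replication genes were called in both directions at shares near those of all genes. Of 20 replication genes, 5 rose (Cdc6, Mcm2, Cdt1, Orc1 and Mcm7) and 4 fell (Tk1, Rrm2, Rrm1 and Tyms), at an adjusted p under 0.05 in limma over all 14459 genes; across all genes 37.5% were called, 21.2% higher and 16.3% lower. Of 18 mitotic genes, 12 fell and none rose, and all 18 had a negative difference. The median log2 difference was 0.02 for replication genes and -0.62 for mitotic genes, against 0.07 over all genes tested. The balance of the replication genes moved with the scaling: 4 rose and 6 fell after quantile normalisation, and 3 rose and 7 fell when the percentile was taken over detected probes, where the median of all genes moved from 0.07 to -0.05. The share of higher genes among all calls was 56.54% here, 46.27% and 41.87% under those scalings. In bulk RNA, fewer cells in a phase and less RNA per cell cannot be told apart.

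Cdc6, the ATPase that brings the helicase to origins, read 0.79, 1.01, 1.06 and 1.16 on the 4 untreated wild-type arrays and 1.80, 1.88, 2.04 and 2.18 on the 4 treated ones. All treated arrays were above all untreated ones, and the difference was 0.97 ± 0.15 (log2, SE; adjusted p = 0.000116), a 1.96-fold rise. Across all genes, 13.7% had every treated array above every untreated one. Mcm2, a subunit of the helicase, moved from 4.11, 4.27, 4.07 and 3.92 to 4.47, 4.84, 4.68 and 4.69, again without overlap, by 0.58 ± 0.12 (adjusted p = 0.0014). Cdt1, the licensing factor that works with Cdc6, moved from 5.27, 5.03, 5.23 and 5.37 to 5.63, 5.51, 5.92 and 6.10, by 0.56 ± 0.09 (adjusted p = 0.000184). These 3 were the replication genes whose groups did not overlap upward, and each was called in all 37 alternative settings.

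Orc1 read 0.02, -0.24, -0.55 and -0.59 untreated and 0.24, 0.02, -0.05 and -0.16 treated, so that its groups overlapped across the runs while each run moved up. Its difference was 0.35 ± 0.11 (adjusted p = 0.0239) and was called in 27 of 37 settings. Mcm7, another helicase subunit, rose by 0.30 ± 0.08 (adjusted p = 0.00652). The rest of the helicase was close to 0: Mcm3, Mcm4, Mcm5 and Mcm6 lay between -0.10 and 0.04, and none was called. Mcm10, which helps start the fork, differed by 0.26 and Gins1 and Gins2, parts of the active helicase, by 0.21 and 0.03, none called. Of the synthesis machinery, Pcna (the sliding clamp) differed by -0.29, Rfc3 (its loader) by -0.27, Pola1 (primase-polymerase) by -0.14 and Pole (leading-strand polymerase) by 0.28, and none was called.

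Tk1, which salvages thymidine, showed the largest change of the 42 tested members. Its level was 5.36, 5.00, 5.18 and 5.02 untreated and 3.84, 3.72, 3.32 and 3.56 treated. The groups lay more than 1 log2 unit apart, the difference was -1.53 ± 0.12 (adjusted p = 1.3e-07), and the treated level was 0.347 of the untreated one. Rrm2, the regulated subunit of ribonucleotide reductase, moved from 6.18, 6.38, 5.80 and 6.0 to 5.86, 5.55, 5.07 and 5.27. These groups overlapped across the runs while each run moved down, by -0.65 ± 0.16 (adjusted p = 0.00497). Rrm1, the larger subunit of that enzyme, moved from 5.18, 4.92, 5.4 and 5.47 to 4.40, 4.40, 5.13 and 5.13, by -0.48 ± 0.10 (adjusted p = 0.00131). Tyms, which makes thymidylate, fell by 0.41 ± 0.14 (adjusted p = 0.0366) and was called in 26 of 37 settings; all its treated arrays lay below its untreated ones.

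**Figure D2:**
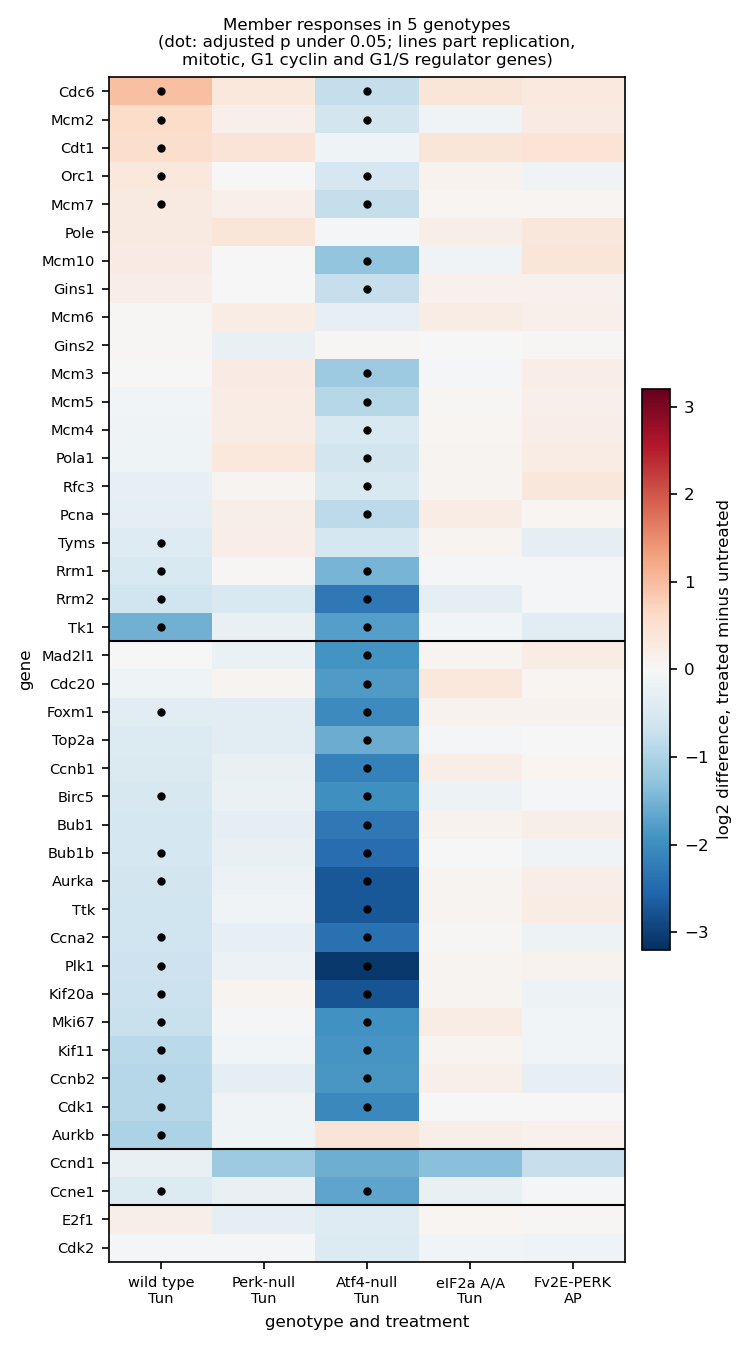
Response (log2 difference, treated minus untreated, as colour: red higher, blue lower) of the 42 tested members in rows, parted by role and ordered by the wild-type response, in the 5 genotypes in columns. A dot marks an adjusted p under 0.05 in limma. In wild type Cdc6 stood at 0.97 and Tk1 at -1.53, and in Atf4-null cells the mitotic genes lay down to -3.10 (Plk1).

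Mitotic entry is driven by Cdk1 with its cyclins. Cdk1 read 3.62, 4.03, 4.13 and 4.12 in untreated wild type and 2.84, 2.69, 3.22 and 3.50 after tunicamycin, with no overlap and a difference of -0.91 ± 0.21 (adjusted p = 0.0029). Ccnb2 differed in level between the runs, at 4.92 and 4.86 in run 1 and 6.33 and 6.33 in run 2 untreated, and at 3.94, 3.78, 5.54 and 5.58 treated. Within each run all treated arrays were lower, and the difference was -0.90 ± 0.18 (adjusted p = 0.00103). Ccna2 (cyclin A2) fell by 0.65 ± 0.15 (adjusted p = 0.00251), while Ccnb1 (cyclin B1) differed by -0.46 ± 0.20 (adjusted p = 0.0789) and was not called. Foxm1, the transcription factor of this program, fell by 0.33 ± 0.12 (adjusted p = 0.0438).

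Spindle genes fell as well. Kif11 read 1.43, 1.22, 1.94 and 1.86 untreated and 0.39, 0.34, 1.12 and 1.14 treated, without overlap, by -0.87 ± 0.10 (adjusted p = 1.17e-05). Plk1 read 5.56, 5.2, 5.87 and 5.88 untreated and 5.04, 4.90, 4.87 and 5.02 treated, also without overlap. Its difference of -0.67 ± 0.25 (adjusted p = 0.0485) was near the threshold and was called in 13 of 37 settings, as was that of the spindle-pole kinase Aurka, -0.59 ± 0.22 (adjusted p = 0.0443). Kif20a, a motor of the midzone, fell by 0.70 ± 0.23 (adjusted p = 0.0287), Birc5 (survivin) by 0.50 ± 0.15 (adjusted p = 0.0183), and Mki67, the Ki-67 antigen of dividing cells, by 0.72 ± 0.16 (adjusted p = 0.00219). Aurkb, the partner kinase of Birc5, was dim: 2 of 4 untreated and 1 of 4 treated wild-type arrays were well above background, so its difference of -1.02 rests on few measured spots.

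The spindle checkpoint was uneven. Bub1b fell by 0.56 ± 0.21 (adjusted p = 0.0414), the kinase Bub1 differed by -0.55 ± 0.21 (adjusted p = 0.0548), and the kinase Ttk by -0.65 ± 0.25 (adjusted p = 0.0578). Mad2l1 read 3.68, 3.94, 4.58 and 4.67 untreated and 4.12, 3.77, 4.35 and 4.56 treated. Its groups overlapped, with a difference of -0.02 ± 0.17 (95% interval -0.37 to 0.34). Cdc20, the activator of the anaphase-promoting complex, differed by -0.14 (interval -0.62 to 0.35), and Top2a (topoisomerase IIα) by -0.44 (adjusted p = 0.105). In all, 7 of 18 mitotic members had every treated array below every untreated one, against 8.17% of all genes. Leaving out untreated wild-type replicate 4 lowered the members called from 22 to 14, and a fit without the run term called 10.

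The G1 members did not move together. Ccne1 (cyclin E1) read 3.87, 3.97, 3.78 and 3.88 untreated and 3.87, 3.58, 3.10 and 3.24 treated, and fell by 0.43 ± 0.13 (adjusted p = 0.0172). By limma with wild type divided by run, it was called in run 2 (-0.66, adjusted p = 0.0111) and not in run 1 (-0.20, adjusted p = 0.384). E2f1, the founding E2F activator, and Cdk2, the kinase that cyclins E and A bind, differed by 0.19 and -0.05 and were not called. Ccnd1 (cyclin D1), which opens G1 with Cdk4 and Cdk6, split by run. It moved from 4.86 and 4.46 to 5.21 and 5.93 in run 1, and from 4.08 and 4.34 to 2.79 and 2.89 in run 2. In a fit with wild type divided by run, the difference was 0.91 ± 0.42 (adjusted p = 0.104) in run 1 and -1.37 ± 0.42 (adjusted p = 0.0303) in run 2. The response of run 2 minus that of run 1 was -2.28 ± 0.59 (adjusted p = 0.0296). It was the only 1 of 42 members called in that comparison, in which 7.88% of all genes were called. The call was lost with slide as a random block (adjusted p = 0.0581), with a replicate block (0.108), and without wild-type untreated replicate 2, 3 or 4 or treated replicate 2, 3 or 4 (0.0708 to 0.103).

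**Figure D3:**
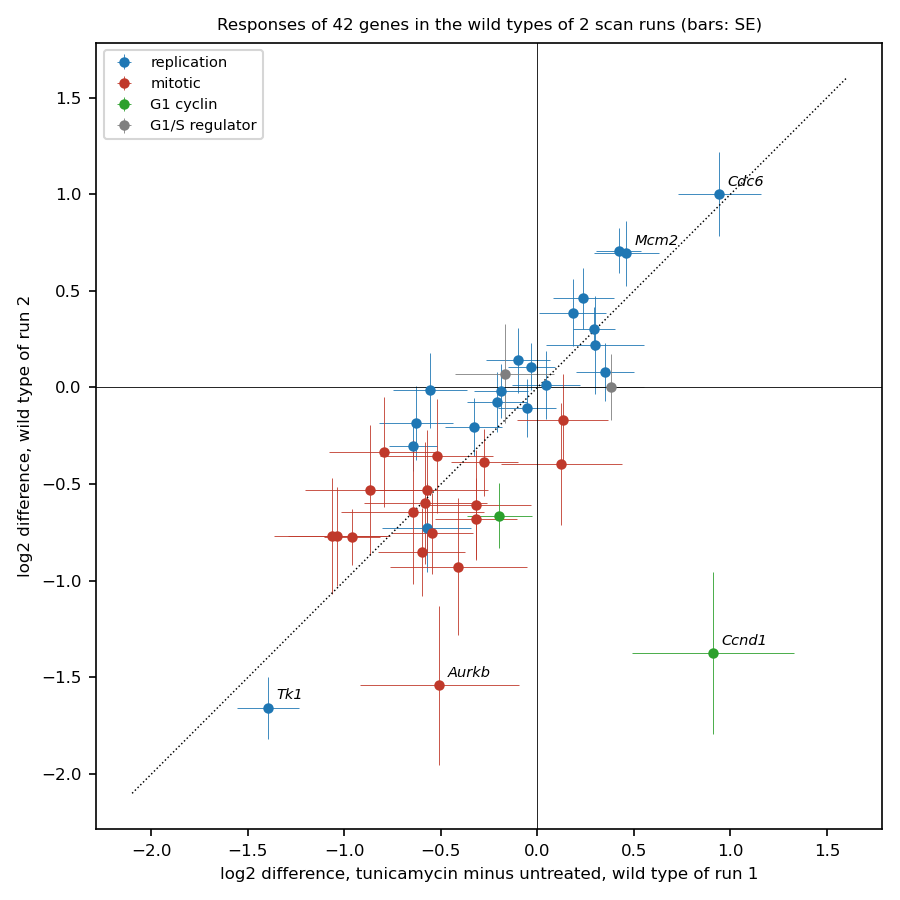
Tunicamycin response (log2 difference) of each member in wild type of run 1 (x axis) against wild type of run 2 (y axis), coloured by role, with the standard error as bars and a dotted line of equality. Ccnd1, at 0.91 and -1.37, lies farthest from the line of equality, and Tk1 lies at -1.39 and -1.66.

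Apart from Ccnd1, no member passed the test of run 2 minus run 1, though some estimates lay apart: that difference was -1.03 for the dim Aurkb (adjusted p = 0.326), -0.47 for Ccne1 (adjusted p = 0.272) and 0.46 for Bub1b (adjusted p = 0.552), each by limma. By run, Cdc6 differed by 0.94 in run 1 and 1.00 in run 2, Tk1 by -1.39 and -1.66, Kif11 by -0.96 and -0.77, and the mitotic median was -0.56 and -0.63. Of 18 mitotic genes 4 were called lower in run 1 and 6 in run 2, with 16 and 18 estimates negative. Over all 14459 genes 2409 and 1306 were called lower. Counts of called members were 12 in run 1 and 13 in run 2, where 37.0% and 21.2% of all genes were called. In fits of the arrays of 1 run alone, run 1 called 1 member (Tk1; 8.96% of all genes) and run 2 called 21 (31.2%). The run 1 count fell to 5 without untreated replicate 2, and the run 2 count to between 4 and 6 without any 1 of its 4 wild-type arrays.

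The longer lists were read against the shares of all genes in wild type, 21.2% higher and 16.3% lower. Of 48 other replication genes 8 rose and 3 fell, both below those shares, with a median of 0.02; the largest were Orc2 (1.05), Clspn (-0.69) and Rnaseh2a (0.69). Of 69 tested other mitotic genes none rose and 34 fell, with a median of -0.49, led by Pttg1 (securin, -1.20), Nuf2 (a kinetochore protein, -1.06) and Ckap2l (-1.02). Of 15 other G1 and G1/S genes 3 rose and 1 fell: Myc rose by 1.45, Ccnd2 by 1.04, and Ccnd3 fell by 0.85. Of 31 cell cycle inhibitors 5 rose and 5 fell, near the shares of all genes, from Gadd45a (3.58) to Gadd45g (-2.11) and Cdkn2d (-1.44).

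In Atf4-null cells nearly the whole set was lower after tunicamycin. These are run 1 arrays, where slide and scan cannot be told apart from treatment. Of 18 mitotic genes 17 fell, of 20 replication genes 15 fell, and none of either rose; 29.0% of all genes were called, 12.0% higher and 17.1% lower. The median was -2.05 for mitotic and -0.65 for replication genes, against -0.04 over all genes. Among other mitotic genes 67 of 69 fell (median -1.78), and among other replication genes 23 of 48 (median -0.47). Every treated array lay below every untreated one for 17 of 18 mitotic and 18 of 20 replication genes, against 29.4% of all genes. The median of mitotic genes on each array was 4.06 and 4.86 untreated and 1.79 and 2.70 treated, so that even the closer pair of arrays stood more than 1 log2 unit apart. Markers of other cell types moved on the same arrays. The linear levels of 6 haematopoietic markers summed to 10.6 and 20.04 untreated and 28.8 and 88.3 treated, with 2 of 6 well above background on all arrays of either group; Itgam, an integrin of myeloid cells, went from a mean log2 level of 3.71 to 5.61, while Hbb-bs was not well above background on any of the 4 arrays. The 6 neural markers summed to 14.4 and 19.995 untreated and 23.9 and 80.7 treated, with 3 of 6 well above background on all arrays of either group, and Snap25, a synaptic protein, went from 3.44 to 5.25. On average Itgam and Snap25 made up most of the haematopoietic and neural sums. The 5 endothelial markers summed to 6.58 and 11.7 untreated and 4.35 and 6.40 treated. The 6 muscle markers summed to 2.48 and 3.32 untreated and 0.47 and 0.95 treated, with Acta1 (skeletal actin) as the only 1 well above background on any of these arrays. Such sums varied between other groups as well. The haematopoietic sum spanned 11.2 to 65.5 in treated wild type and 54.0 to 85.3 in untreated eIF2a A/A cells. The neural sum spanned 11.3 to 53.7 and 42.8 to 69.5 in the same groups. With AP the 2 sums were at most 10.6 and 11.2. The part of these markers in the Atf4-null results was not tested.

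**Figure D4:**
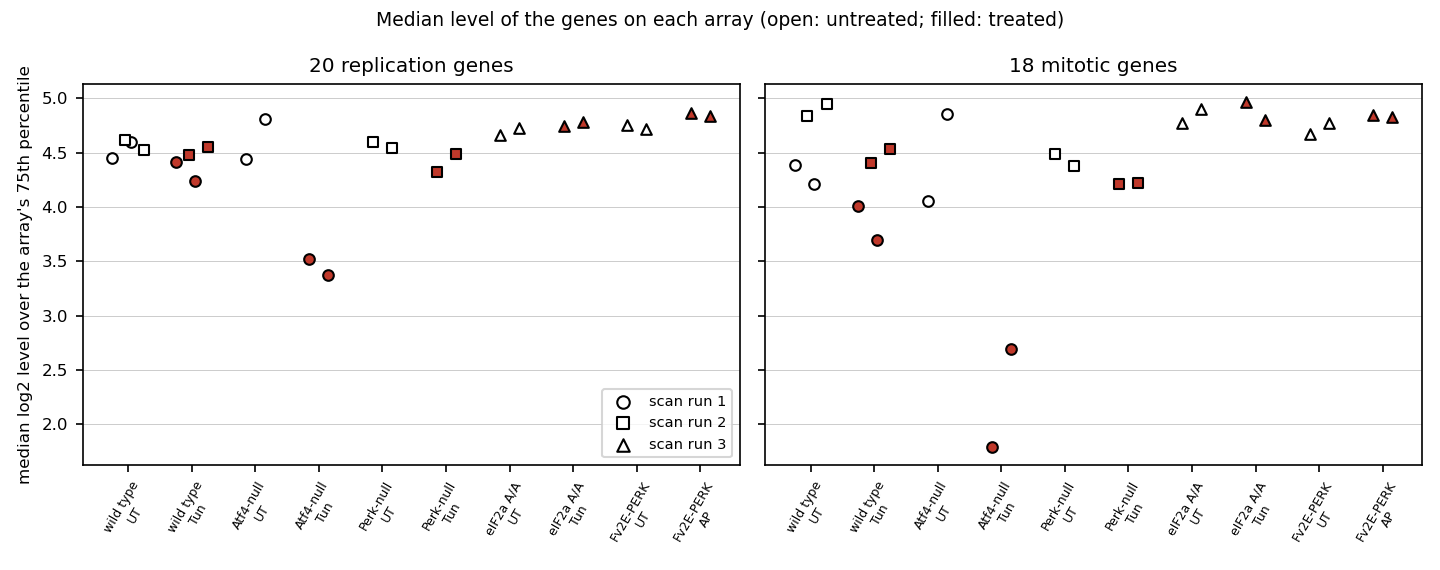
Median log2 level of the mitotic and of the replication members on each of the 24 arrays, grouped by genotype and treatment (open untreated, filled treated, shape by scan run). The 2 treated Atf4-null arrays lie lowest, at 1.79 and 2.70 for mitotic and 3.52 and 3.37 for replication genes.

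Plk1 fell furthest, from 5.42 and 5.98 to 1.76 and 3.45, by 3.10 ± 0.36 (log2, SE; adjusted p = 2.9e-05). The treated level was 0.117 of the untreated one, and the 2 treated arrays differed by more than the untreated ones. Kif20a moved from 4.80 and 5.47 to 1.62 and 3.12, by -2.76 ± 0.33 (adjusted p = 3.89e-05), and Aurka from 4.60 and 5.67 to 1.83 and 3.02, by -2.71 ± 0.31 (adjusted p = 2.55e-05). Ttk fell by 2.72 ± 0.36 (adjusted p = 8.26e-05), with 1 of its 2 treated arrays not well above background. Ccna2 fell by 2.38 ± 0.21 (adjusted p = 2.65e-06), Foxm1 by 2.05 ± 0.17 (adjusted p = 2e-06) and Kif11 by 1.89 ± 0.15 (adjusted p = 9.87e-07).

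Checkpoint and late mitotic genes took part too. Mad2l1 moved from 3.96 and 4.75 to 2.09 and 2.77, by -1.92 ± 0.24 (adjusted p = 4.49e-05), and Cdc20 from 5.16 and 5.52 to 2.78 and 4.27, by -1.81 ± 0.32 (adjusted p = 0.000745). Both were among the members not called in wild type. Bub1, Bub1b, Ccnb1, Ccnb2, Cdk1, Birc5, Mki67 and Top2a fell by between 1.59 and 2.45. Aurkb was the exception, at 0.41, and was not well above background on any of the 4 arrays.

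Among replication genes, Rrm2, Tk1 and Rrm1 had the largest falls. Rrm2 moved from 5.23 and 6.15 to 3.50 and 3.32, by -2.28 ± 0.23 (adjusted p = 8.78e-06). Tk1 moved from 5.17 and 5.08 to 3.59 and 3.15, by -1.75 ± 0.17 (adjusted p = 5.83e-06), and Rrm1 from 4.94 and 5.23 to 3.54 and 3.65, by -1.50 ± 0.14 (adjusted p = 4.62e-06). Cdc6 and Mcm2, which rose in wild type, fell here. Cdc6 moved from 0.85 and 1.48 to 0.04 and 0.79, by -0.76 ± 0.21 (adjusted p = 0.0144), and Mcm2 from 4.06 and 4.54 to 3.69 and 3.75, by -0.58 ± 0.17 (adjusted p = 0.0188).

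Orc1 fell by 0.54 ± 0.16 (adjusted p = 0.0194), and Cdt1 read 5.45 and 5.36 untreated and 5.32 and 5.23 treated, a difference of -0.13 ± 0.13 that was not called. Mcm3, Mcm4, Mcm5, Mcm7, Mcm10, Gins1, Pcna, Pola1 and Rfc3 fell by between 0.48 (Mcm4) and 1.26 (Mcm10). Mcm6, Gins2, Pole and Tyms were not called, at -0.26, 0.04, -0.06 and -0.55. Of the G1 members Ccne1 moved from 3.77 and 4.24 to 2.49 and 2.13, by -1.69 ± 0.19 (adjusted p = 1.97e-05). Ccnd1 moved from 3.32 and 5.12 to 3.0 and 2.34, and its difference of -1.55 was not called (adjusted p = 0.0558). E2f1 and Cdk2 differed by -0.41 and -0.43, neither called.

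These Atf4-null calls lean on the spread shared with the other arrays. A limma fit of the 4 Atf4-null arrays alone called no member, with 26 of 42 at an unadjusted p under 0.05, and a fit of the run 1 arrays alone called 9: Rrm1, Rrm2, Tk1, Ccna2, Plk1, Kif11, Birc5, Foxm1 and Ccne1, where 1.75% of all genes were called. Treated replicate 1 had the lowest 75th percentile of the 24 arrays. With the percentile taken over detected probes the median of all genes moved from -0.04 to 0.19, and 64.53% of all calls were higher in place of 41.22%. There, 17 mitotic and 9 replication genes still fell.

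**Figure D5:**
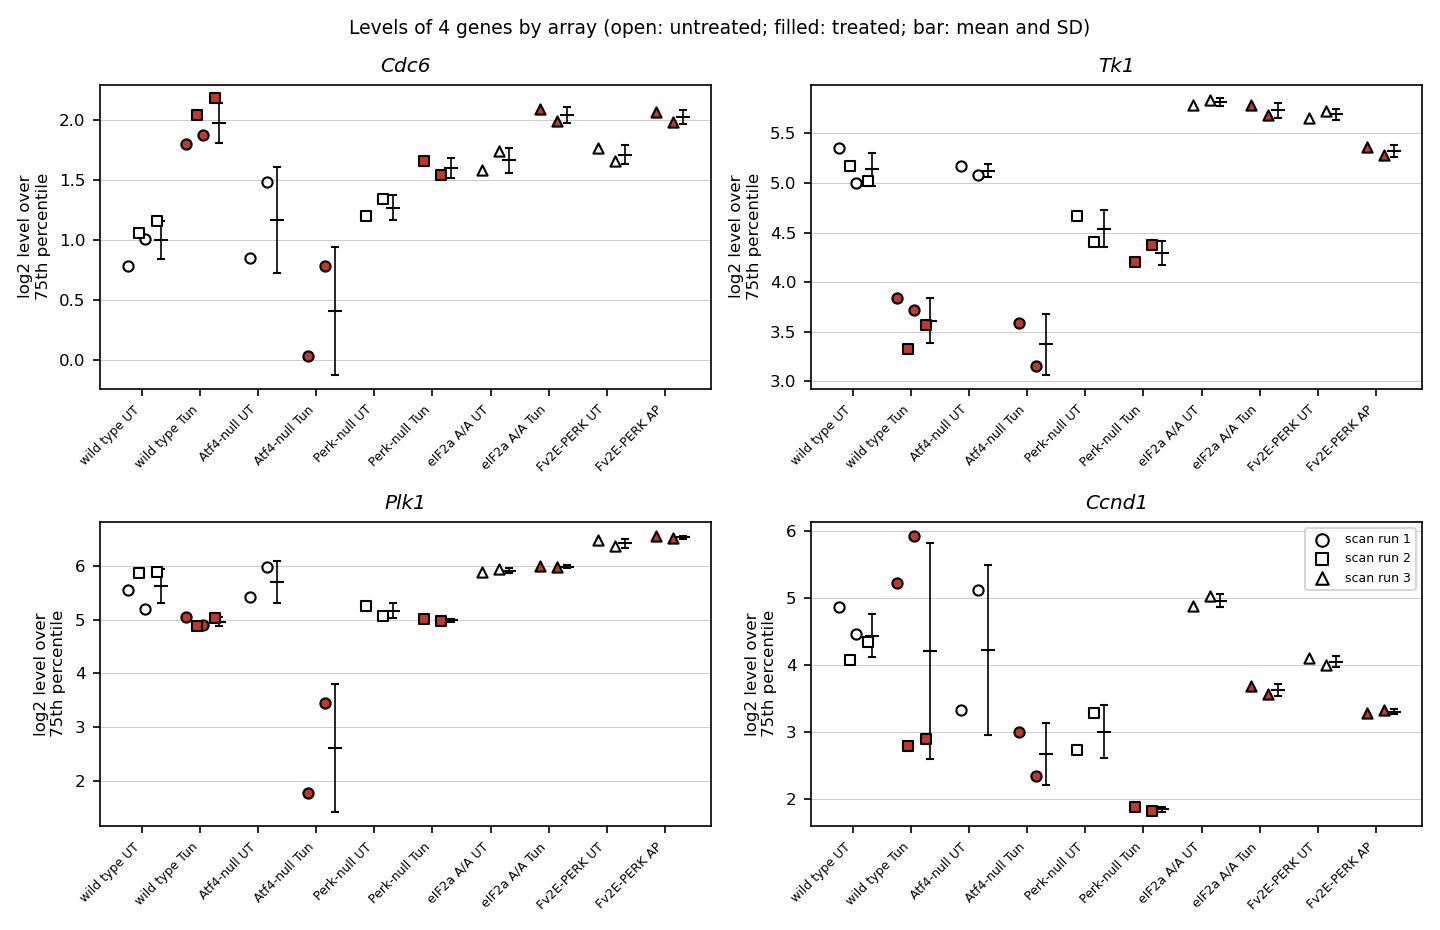
Log2 level of Cdc6, Tk1, Plk1 and Ccnd1 on every array, by genotype and treatment (open untreated, filled treated, shape by scan run), with each group's mean and SD as bars. Tk1 lies lower in treated than untreated wild-type and Atf4-null cells, and Plk1 reaches 1.76 and 3.45 in treated Atf4-null cells.

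The difference between the Atf4-null and wild-type responses was tested directly. Of 18 mitotic genes 17 were lower in Atf4-null cells (median -1.71), as were 11 of 20 replication genes (median -0.76) and Ccne1 (-1.26 ± 0.23, adjusted p = 0.00101), while 30.5% of all genes were called, with 19.6% lower. Plk1 differed by -2.43 ± 0.44 (adjusted p = 0.00101), Aurka by -2.12 ± 0.38 (adjusted p = 0.000921) and Mad2l1 by -1.90 ± 0.29 (adjusted p = 0.000305). Among replication genes Cdc6 differed by -1.73 ± 0.26 (adjusted p = 0.000264), Rrm2 by -1.64 ± 0.28 (adjusted p = 0.000692) and Mcm2 by -1.16 ± 0.21 (adjusted p = 0.000995). Tk1, the gene that fell most in wild type, did not differ beyond error: -0.23, with an interval from -0.66 to 0.21.

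Against the wild type of run 1 alone, 14 mitotic and 11 replication genes were lower, with Ccne1 (-1.50, adjusted p = 0.000316), Ccnd1 (-2.46, adjusted p = 0.00536) and E2f1 (-0.79), where 34.3% of all genes were called. Fitted by limma on the run 1 arrays alone the same difference called no member, with 25 at an unadjusted p under 0.05, and 3.26% of all genes. Genes outside the set were read against wild type of both runs, in the fit of all arrays. There the spindle factor Tpx2 differed by -2.54, the dUTPase gene Dut by -2.08, the transcription factor Mybl2 (B-Myb) by -2.34 and the inhibitor Gadd45a by -2.50.

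In the other 3 genotypes no member passed the test in limma, and 3, 2 and 3 of 42 had an unadjusted p under 0.05 in Perk-null, eIF2a A/A and Fv2E-PERK cells. In simulated data a log2 change of 0.5 was recovered for 8%, 3% and 7% of changed genes there, against 31% in wild type. Those data held 100 changed genes, whereas the real fits called 330, 708 and 588 genes there and 5424 in wild type. The adjusted p depends on that number, so these shares are not the sensitivity of the real tests. Across all genes 2.28% were called in Perk-null, 4.90% in eIF2a A/A and 4.07% in Fv2E-PERK cells. Perk-null medians were 0.18 for replication and -0.19 for mitotic genes, eIF2a A/A medians 0.07 and 0.10, and AP-treated Fv2E-PERK medians 0.17 and 0.04. The AP treatment differs from tunicamycin, and it was compared only with its own untreated arrays unless stated. On arrays of the same run the spread was smaller, and more members passed: 1 in Perk-null (6.40% of all genes), 6 in eIF2a A/A (34.4%) and 11 in Fv2E-PERK (32.7%).

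Ccnd1 was the member lower in all 3 of those same-run fits. It moved from 2.72 and 3.28 to 1.87 and 1.81 in Perk-null cells, by -1.16 ± 0.20 (adjusted p = 0.0277). In eIF2a A/A cells it moved from 4.88 and 5.02 to 3.68 and 3.56, by -1.33 ± 0.08 (adjusted p = 5e-04). In Fv2E-PERK cells AP moved it from 4.10 and 3.99 to 3.27 and 3.33, by -0.74 ± 0.08 (adjusted p = 0.00264). The treated and untreated arrays did not overlap in any of the 3. In the fit of all arrays the same differences had adjusted p of 0.439, 0.242 and 0.593. The spread of Ccnd1 between the 2 untreated Atf4-null arrays, at 3.32 and 5.12, enters that fit. So do its opposite wild-type responses, 0.91 in run 1 and -1.37 in run 2. The part of each in these p-values was not tested.

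Cdt1 and Cdc6 were higher in 2 of those 3 same-run fits, where the members called were a smaller share than that of all genes. Cdt1 went from 5.16 and 5.39 to 5.71 and 5.64 in eIF2a A/A cells (0.40 ± 0.09, adjusted p = 0.0186) and from 5.87 and 5.91 to 6.32 and 6.33 with AP (0.44 ± 0.09, adjusted p = 0.0151). Cdc6 went from 1.59 and 1.74 to 2.09 and 1.99 in eIF2a A/A cells (0.38 ± 0.08, adjusted p = 0.0193) and from 1.77 and 1.66 to 2.07 and 1.99 with AP (0.32 ± 0.08, adjusted p = 0.0354). In Perk-null cells they differed by 0.41 (adjusted p = 0.0861) and 0.33 (adjusted p = 0.144), and Orc1 was not called in any of the 3, at 0.01 in Perk-null, 0.12 in eIF2a A/A and -0.11 with AP. With AP, Mcm2, Mcm10, Pola1, Pole and Rfc3 were also higher, by 0.24 to 0.39, and Tk1 (-0.37), Tyms (-0.30) and Ccnb2 (-0.26) were lower. In eIF2a A/A cells Ccnb1, Cdc20 and Mki67 were higher by 0.22 to 0.34, so that the mitotic genes that passed there did so upward.

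Tk1 fell in wild type and had smaller negative differences in these 3 genotypes. In the fit of all arrays Tk1 differed by -0.25 in Perk-null, -0.08 in eIF2a A/A and -0.37 in AP-treated cells. It moved from 4.67 and 4.41 to 4.20 and 4.38 in Perk-null cells, from 5.78 and 5.84 to 5.78 and 5.68 in eIF2a A/A cells, and from 5.65 and 5.73 to 5.37 and 5.28 with AP. Its response exceeded that of wild type by 1.28 ± 0.20 in Perk-null (adjusted p = 0.000947), 1.45 ± 0.20 in eIF2a A/A (adjusted p = 0.000227) and 1.16 ± 0.20 in AP-treated Fv2E-PERK cells (adjusted p = 0.00325). The 3 differences share the wild-type arrays, and 13.2%, 18.2% and 7.19% of all genes were called in them. Within run 2 the Perk-null difference for Tk1 was 1.41 ± 0.23 (adjusted p = 0.00158; 8.35% of all genes). Each of these 4 Tk1 differences was called in every alternative setting that was run. The eIF2a A/A and AP comparisons set run 3 against runs 1 and 2, so that run and genotype cannot be told apart in them.

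Kif11, the spindle motor, also differed from wild type in its response. It moved from 2.26 and 2.32 to 2.14 and 2.26 in Perk-null, from 1.03 and 1.15 to 1.14 and 1.24 in eIF2a A/A, and from 2.12 and 2.07 to 2.03 and 1.98 in AP-treated cells. The differences from wild type were 0.78 (adjusted p = 0.0105), 0.96 (adjusted p = 0.00188) and 0.78 (adjusted p = 0.0169), each ± 0.18, and within run 2 the Perk-null difference was 0.68 (adjusted p = 0.0546). In eIF2a A/A cells Ccnb2 (1.08, adjusted p = 0.0257) and Mki67 (0.96, adjusted p = 0.0252) also differed from wild type upward. Mcm2 differed downward there (-0.68, adjusted p = 0.0336), a call held in 23 of 37 settings: it read 4.06 and 4.15 untreated and 4.0 and 4.0 treated. In a fit of run 2 alone, the Perk-null response exceeded that of wild type for Tk1, Plk1 (0.75), Mki67 (0.81), Kif11, Ttk (0.53) and Ccnb2 (0.49) and was below it for Cdc6 (-0.67). These 7 of 42 members were a share near the 15.9% of all genes called in that fit.

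Before treatment, 11 of 42 members differed between Perk-null cells and untreated wild type of the same run, a smaller share than the 40.8% called over all genes. Mcm3 read 6.82 and 6.92 against 5.62 and 5.73 (1.20 ± 0.17, adjusted p = 5.31e-05), and Cdt1 6.14 and 6.15 against 5.23 and 5.37 (0.84 ± 0.12, adjusted p = 5.59e-05). Mcm2, Mcm7 and Kif11 were higher by 0.61, 0.43 and 0.39. Ccne1 read 2.78 and 2.66 against 3.78 and 3.88 (-1.11 ± 0.17, adjusted p = 0.000112), and Ccnd1 (-1.21), Rrm2 (-0.83), Gins1 (-0.82), E2f1 (-0.67) and Tk1 (-0.56) were lower too. The summed epithelial markers were 44.3 and 53.8 on these Perk-null arrays and at most 1.40 in wild type. The count was 7 without untreated wild-type replicate 3 or 4 and 6 without untreated Perk-null replicate 2, and a fit of run 2 alone called 20 (51.6% of all genes). Against all 4 untreated wild-type arrays, with the run term, 10 members were called (41.1% of all genes).

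Between untreated Atf4-null cells and the wild type of their run 5 of 42 members were called, also a smaller share than the 23.9% over all genes. Gins1 (0.69 ± 0.15, adjusted p = 0.00364), Mcm7 (0.45), Rfc3 (0.43) and Ccnb2 (0.75) were higher, and Pole was lower (-0.67 ± 0.18, adjusted p = 0.0117). The count was 2 without untreated wild-type replicate 1 or 2 and 3 without replicate 3 or 4. A fit of the run 1 arrays alone called no member by limma, with 1 at an unadjusted p under 0.05 (5.69% of all genes called), and against all 4 wild-type arrays 6 were called (21.1%). Plk1, at 5.42 and 5.98 in untreated Atf4-null and 5.56 and 5.2 in wild type, overlapped between the genotypes, and Rrm2, at 5.23 and 6.15 against 6.18 and 6.38, did not overlap and was not called. The median level of the mitotic genes was 4.06 and 4.86 in untreated Atf4-null against 4.38 and 4.21 in wild type of run 1.

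Grouped by promoter word, the 10 replication and mitotic members with an E2F word had a median wild-type response of 0.03 (4 higher, 1 lower), and the 20 without one -0.53 (1 higher, 11 lower). In Atf4-null cells these medians were -0.67 and -1.91. The 14 members with a CHR word had medians of -0.58 in wild type and -1.91 in Atf4-null cells, where all 14 fell, against -0.11 and -1.03 for the 16 without. Role and word overlap, so these medians repeat the division between replication and mitotic genes. Exceptions ran within it: Mcm2 held a CHR and no E2F word and rose in wild type, and Tk1, Rrm1 and Rrm2 held neither and fell.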

How the data were processed

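Total RNA from 24 MEF samples was labelled with Cy3 and read on one-colour Agilent arrays of 55681 probes. The deposited scanner files give a processed intensity per spot, which Agilent Feature Extraction 10.7.1.1 had corrected for background, as the file headers state (per the file headers). The authors' deposited table gives log2 values of the same spots, and differences between arrays matched those from the scanner values for 99.32% of values within 0.001. Processed intensities were taken to log2, the array's 75th percentile was subtracted, probes were named through their RefSeq accession (20170 genes), and the brightest probe stood for a gene. limma 3.58.1 (R 4.3.3) fitted 10 group means with a term for run 2 (13 residual degrees of freedom), or 12 group means with wild type divided by run. Differences were called at a Benjamini-Hochberg adjusted p under 0.05 over 14459 genes; 5711 were set aside as dim. The fit was tested on simulated data with 100 changed genes, a number unlike that called in the real data, so the shares describe the simulation only. A log2 change of 1.0 was recovered for 67% of them in wild type and 51% in Atf4-null cells. In Perk-null, eIF2a A/A and Fv2E-PERK cells the shares were 43%, 40% and 45%. For a change of 0.5 they were 31% and 9%, and 8%, 3% and 7%. The number of arrays, 2 or 4 a group, limits the precision; no spot was saturated.

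The normexp alternative used the median signal, because the mean signal was not in the columns used here. The other alternatives were quantile normalisation, the percentile over detected probes, the deposited log2 values, no filter or a stricter one, the mean of a gene's probes, no run term, slide or replicate number as a block, fewer arrays, and each array left out. Fits of 1 run alone and slide as a fixed block in run 2 were chosen after seeing the data. The members, the lists of other cell cycle genes and the searched words were chosen with earlier results of these data known, so no p is given for a list. All 43 members could be named; from each list of other genes, the 3 called genes with the largest difference. Replicate numbers did not pair the samples: deviations of same-numbered arrays correlated at -0.472 in Perk-null and between -0.007 and 0.067 in the other genotypes. Promoters were matched by symbol in the RefSeq table.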

Additional observations from a re-analysis of the deposited data

Results flagged for a closer look

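Of 84 groups of 4 wild-type arrays checked, 2 held an array far from the other 3, where chance gives about 1 in 20. Both were treated wild-type replicate 2: Gins2 read 3.29 against 3.63 for the nearest array, and Ttk read -1.52 against -0.52.

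Responses that differed from wild type by a test of the difference itself were, for Perk-null cells, Tk1 (1.28, and 1.41 within run 2) and Kif11 (0.78). For eIF2a A/A cells they were Tk1 (1.45), Ccnb2 (1.08), Kif11 (0.96), Mki67 (0.96) and Mcm2 (-0.68), and for AP-treated Fv2E-PERK cells Tk1 (1.16) and Kif11 (0.78). Over all genes 13.2% were called for Perk-null (8.35% within run 2), 18.2% for eIF2a A/A and 7.19% for AP. Each was a larger share than among the 42 members. For Atf4-null cells 17 mitotic members, 11 replication members and 1 G1 cyclin responded lower than in wild type, where 30.5% of all genes were called and 19.6% were lower. Within run 1 these counts were 14, 11 and 2, with 1 G1/S regulator, where 34.3% of all genes were called. A fit of the run 1 arrays alone called no member. Between the wild types of the 2 runs Ccnd1 differed by -2.28, where 7.88% of all genes were called.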

How the results depend on the processing

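Counts are members called by limma. In fits of 1 run alone the shares of all genes called were 1.75% in Atf4-null, 6.40% in Perk-null, 34.4% in eIF2a A/A and 32.7% with AP. For wild type they were 8.96% in run 1 and 31.2% in run 2. Differences from wild type had 15.9% for Perk-null and 3.26% for Atf4-null, and untreated comparisons 51.6% and 5.69%. The eIF2a A/A and AP counts on run 3 alone were smaller shares than those of all genes. Such shares are not given here for the other alternatives. With array subsets, the wild-type count of 22 was 10 without the run term. Atf4-null calls (33) were 0 on the arrays compared alone and 9 on run 1 alone, and Perk-null calls (0) were 1 on run 2 alone. eIF2a A/A calls (0) were 1 and 6, and AP calls (0) were 7 and 11, on the compared arrays and on run 3, with 1 for AP when wild type was divided by run. Wild type of run 1 (12) gave 0 and 1, and of run 2 (13) 27 and 21. For differences from wild type, Perk-null (2) gave 1 without the run term, and within run 2 (1) gave 2 under normexp, quantile, detected-probe percentile, the stricter filter, the mean of probes and the replicate block, and 7 on either array subset. eIF2a A/A (5) gave 9 under quantile, 8 under the detected-probe percentile, 2 without the run term and 9 on the arrays compared, and AP (2) gave 4 with the mean of probes, 1 without the run term and 6 on the arrays compared. Atf4-null within run 1 (28) gave 0 on either subset. Untreated Perk-null against all wild type (10) gave 16 with wild type divided and 6 with slide as a fixed block in run 2, and within run 2 (11) gave 20 on either subset. Untreated Atf4-null (6) gave 1 without the run term, 3 with wild type divided and 0 on the arrays compared, and within run 1 (5) gave 3 without a filter or with that slide block and 0 on either subset.

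Leaving out 1 array at a time gave, for the responses, 14 to 28 in wild type, 5 to 17 in run 1, 4 to 17 in run 2, 28 to 36 in Atf4-null and 0 to 1 with AP; Perk-null and eIF2a A/A stayed at 0. For differences from wild type it gave 27 to 34 for Atf4-null, 25 to 31 within run 1, 1 to 5 for Perk-null, 1 to 2 within run 2, 2 to 8 for eIF2a A/A, 1 to 4 for AP and 0 to 2 between the runs. Untreated counts ranged from 5 to 11 for Atf4-null, 2 to 7 within run 1, 5 to 17 for Perk-null and 6 to 16 within run 2.

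The replicate block gave 23 calls in wild type and 0 between the runs, as did slide as a random block there. It could not be fitted for untreated genotype comparisons, and a fixed slide block in run 3, where each slide held 1 genotype, was not run. With slide as a fixed block in run 2, which follows the crossed Perk-null numbers, no Perk-null member was called.

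Signs turned in a few places. Of the medians, which have no test, that of wild-type replication genes became -0.153 under quantile and -0.1 under the detected-probe percentile, and in run 2 -0.072 and -0.068. In untreated Perk-null cells the mitotic median became 0.057 without the run term and with wild type divided, where Aurkb read 1.198 and Bub1b 0.646, and the replication median became -0.059 (-0.04 within run 2) without untreated Perk-null replicate 1. In untreated Atf4-null cells the mitotic median became -0.094 without the run term or with wild type divided. Under quantile, Mcm6 (0.514) and Cdt1 (0.086) turned in Atf4-null against wild type of run 1. The causes were not tested. Probes near background, such as Aurkb and Ccne2, limit what can be said of dim genes.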
